A study of Rattus norvegicus with 36 samples.

Results

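The genes described here are the chemokines and chemokine receptors of the rat mammary gland and its cancers. They were chosen by symbol alone: every gene whose single annotated symbol starts with Ccl, Cxcl, Ccr or Cxcr and a number, or is Xcl1, Xcr1, Cx3cl1 or Cx3cr1. The rule found 41 genes on 53 probe sets, among 14218 genes with a single symbol on the array. They comprise 29 ligands and 12 receptors. Expression had been measured on 36 single-colour arrays from female Sprague-Dawley rats, 33 with RNA of mammary cancers and 3 with RNA of normal mammary tissue of untreated rats. The cancers were spontaneous (n = 3), or arose after 1 Gy of whole-body gamma radiation (n = 4), after the alkylating carcinogen MNU (40 mg/kg; 5 cancers with and 4 without an H-ras mutation), or after PhIP, a heterocyclic amine of cooked meat (40 mg/kg per day; 1 cancer with and 3 without the mutation). Combined exposure gave radiation plus MNU cancers (5 mutated, 4 nonmutated) and radiation plus PhIP cancers (4, nonmutated). Spontaneous and radiation cancers were all H-ras nonmutated. Radiation was given at 7 weeks of age and the chemical 3 days after it. PhIP was gavaged on 5 days of the week for 2 weeks, and from week 9 of life all animals were on a 23.5% corn oil diet. The age at which tissue was taken is not in the labels, and nothing in them says whether any cancers shared a host, so p-values measure the spread between these samples.

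Chemokines are small secreted proteins that direct the movement of leukocytes through receptors coupled to inhibitory G proteins. Inflammatory members are made on demand by activated macrophages, stroma and epithelium, whereas homeostatic members such as Ccl19, Ccl21, Cxcl12 and Cxcl13 position cells in resting and lymphoid tissue. In the mammary gland, chemokines bring in macrophages and eosinophils during duct growth and antibody-secreting cells during lactation, and in tumours they shape which leukocytes enter. Interferon induces Cxcl9, Cxcl10 and Cxcl11, which share the receptor Cxcr3, and inflammatory signals acting through NF-kB induce Cxcl1 and Cxcl2, which share Cxcr2.

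These 2 sets of neighbouring ligands lie on chromosome 14, and their promoters are shown with that of Ccl19 because their members are set side by side below. Each line runs from 250 bases before the annotated start of the gene to 50 bases into it, 5′ to 3′ on the gene's strand, from RefSeq (build GRCr8). Capitals mark an interferon-stimulated response element core (GAAANNGAAA) or a kB site (GGGNNTTTCC) found on either strand.
Cxcl9 (chr14:16006916-16007215, plus strand): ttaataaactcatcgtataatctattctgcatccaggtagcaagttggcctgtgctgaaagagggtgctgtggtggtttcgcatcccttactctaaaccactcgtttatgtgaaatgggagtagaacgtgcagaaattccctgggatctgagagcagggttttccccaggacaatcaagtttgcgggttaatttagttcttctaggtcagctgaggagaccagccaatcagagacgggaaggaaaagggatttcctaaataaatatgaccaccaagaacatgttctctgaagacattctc
Cxcl10 (chr14:15988816-15989115, plus strand): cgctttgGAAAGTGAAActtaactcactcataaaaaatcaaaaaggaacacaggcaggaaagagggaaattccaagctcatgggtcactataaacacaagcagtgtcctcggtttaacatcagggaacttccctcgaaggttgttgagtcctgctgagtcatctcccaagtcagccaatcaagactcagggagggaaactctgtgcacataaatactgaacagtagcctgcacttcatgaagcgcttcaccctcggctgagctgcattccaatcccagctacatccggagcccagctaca
Cxcl11 (chr14:15973478-15973777, plus strand): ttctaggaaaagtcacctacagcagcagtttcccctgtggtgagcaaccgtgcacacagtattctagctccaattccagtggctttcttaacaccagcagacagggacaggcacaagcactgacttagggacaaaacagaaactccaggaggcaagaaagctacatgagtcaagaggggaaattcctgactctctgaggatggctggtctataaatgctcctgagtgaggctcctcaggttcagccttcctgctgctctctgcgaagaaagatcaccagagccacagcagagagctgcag
Ccl19 (chr5:61761115-61761414, minus strand): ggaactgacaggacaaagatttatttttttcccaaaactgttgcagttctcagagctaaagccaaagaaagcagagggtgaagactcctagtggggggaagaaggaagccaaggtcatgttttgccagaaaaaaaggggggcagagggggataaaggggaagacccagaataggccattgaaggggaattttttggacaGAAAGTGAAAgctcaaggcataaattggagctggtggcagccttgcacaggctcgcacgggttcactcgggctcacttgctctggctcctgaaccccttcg
Cxcl1 (chr14:17479272-17479571, minus strand): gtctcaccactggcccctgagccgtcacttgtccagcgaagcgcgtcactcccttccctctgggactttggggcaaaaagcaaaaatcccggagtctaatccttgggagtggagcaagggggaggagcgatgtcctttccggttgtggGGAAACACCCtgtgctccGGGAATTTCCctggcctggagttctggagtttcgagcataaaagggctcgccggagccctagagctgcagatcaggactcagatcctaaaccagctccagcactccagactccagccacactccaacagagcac
Cxcl2 (chr14:17467206-17467505, minus strand): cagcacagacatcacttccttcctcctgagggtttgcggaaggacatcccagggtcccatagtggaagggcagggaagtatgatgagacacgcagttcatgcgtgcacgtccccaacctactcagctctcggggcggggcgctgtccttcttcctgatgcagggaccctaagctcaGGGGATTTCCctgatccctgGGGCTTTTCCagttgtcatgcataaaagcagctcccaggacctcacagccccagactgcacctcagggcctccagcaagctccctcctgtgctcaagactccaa

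Promoters of 32 of the 41 members were in the table used. The response element core was found in 2 of the 32 (6.25%), Cxcl10 and Ccl19, against 3.92% of all 33469 promoters of that length. In Cxcl10 it lies at −243 to −234 and in Ccl19 at −51 to −42, counted from the gene's start. Cxcl9 and Cxcl11, the chromosomal neighbours of Cxcl10, have no match to these letters in the window. A kB site was found in 6 of the 32 (18.8%), against 1.53% of all promoters. Cxcl1 and Cxcl2 have 2 each, and Cxcl6, Ccl9, Ccl20 and Ccr3 have 1. The motifs do not overlap each other in the sequences shown, and a match describes letters, not binding.

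Values are log2(intensity + 42.8), where 42.8 is the 20th percentile of all intensities on all arrays. On this scale the difference of a dim gene is understated. A gene was tested if a probe set exceeded an intensity of 125.8, the 40th percentile, on at least 3 arrays (7.40 on the log2 scale). This left 11773 genes and 33 of the 41 members, namely 26 ligands and 7 receptors. The receptors Ccr2, Ccr4, Ccr6, Cxcr1 and Cxcr2 and the ligands Ccl24, Cxcl6 and Xcl1 did not pass, with highest intensities of 51.07 to 159.7. The arrays had been scaled to a common mean, with median intensities of 161.4 to 222.7. The ratio of 3′ to 5′ hexokinase signal, a sign of RNA integrity, ran from 1.66 to 12.2 and was highest on array 4 of the MNU nonmutated group. Differences come from limma fitted to all 36 arrays, with p-values adjusted by the Benjamini-Hochberg method over the 11773 genes, and "called" means an adjusted p under 0.05.

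Chemokine expression was lower in the cancers than in normal tissue for 10 of the 33 members, and no member was higher. Across all genes tested 34.4% were called, 16.3% lower and 18% higher, while 30.3% of the members were called. The 10 were the lymphoid tissue ligands Ccl21, Ccl19 and Cxcl12, the inflammatory ligands Ccl6, Ccl9 and Ccl3, eotaxin (Ccl11), interferon-induced Cxcl10, and the receptors Ccr1 and Cxcr3. The median difference was −0.293 over the members and 0.024 over all genes, and 25 of the 33 members had a difference below 0. Ccl9, Ccr1 and Ccl19 exceeded the filter intensity on only 5 arrays each, for Ccl9 3 normal arrays and 2 cancers, and for Ccr1 and Ccl19 2 normal arrays and 3 cancers. In bulk tissue, fewer cells of a type and less RNA per cell cannot be told apart.

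**Figure D1:**
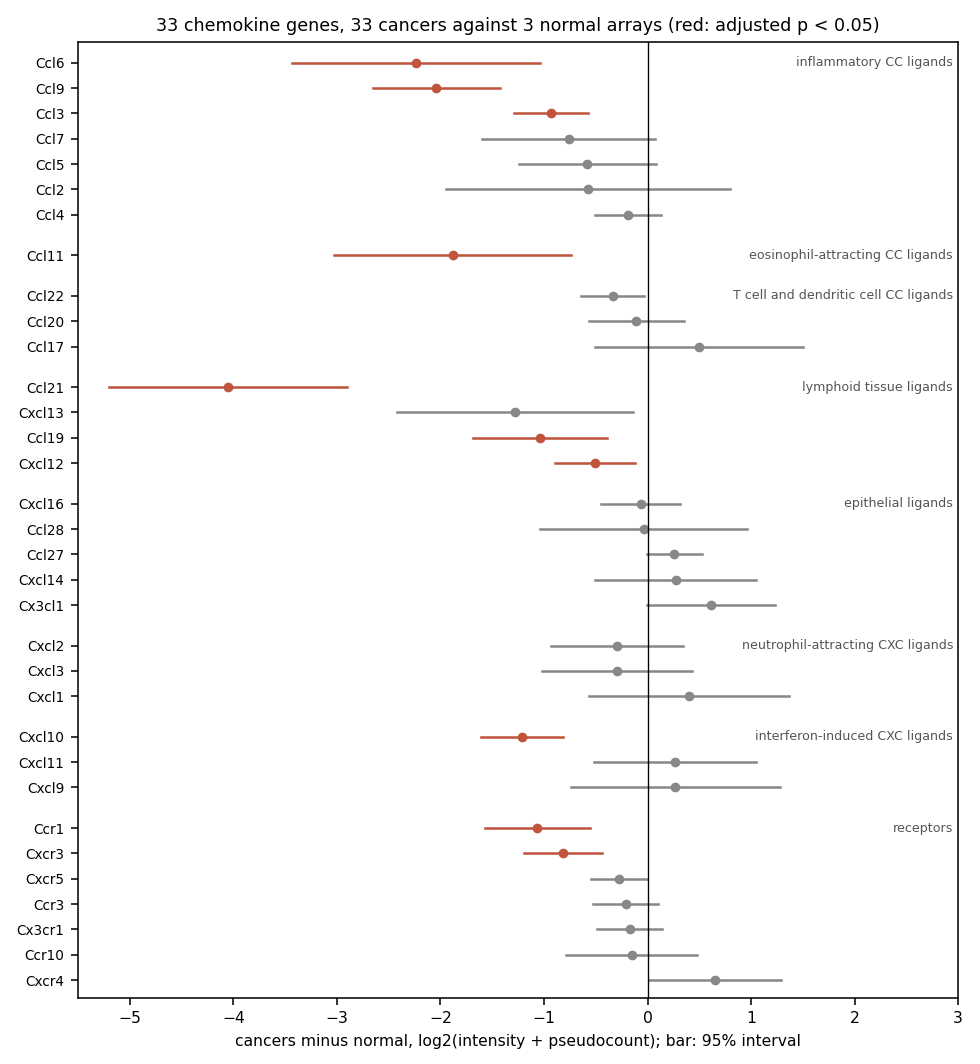
Difference between cancers and normal tissue (x axis, log2 scale) for the 33 members tested, grouped by role (y axis), with points for the limma estimate and bars for its 95% interval. The 10 members with an adjusted p under 0.05, in red, all lie below 0, and Ccl21 is the farthest from it at −4.05.

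Of the 4 lymphoid tissue ligands 3 fell. Ccl21, which binds Ccr7 and guides T cells and dendritic cells from lymphatic vessels into lymph nodes, was at 10.37, 10.87 and 11.65 in normal tissue. In the 33 cancers it ran from 5.60 to 9.62, with a median of 6.48. Every cancer lay below every normal tissue, and the highest was the single PhIP cancer with an H-ras mutation. The difference was −4.05 ± 0.56 (SE), 16.6-fold lower, with an adjusted p of 2.84e-06 (limma).

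Ccl19, the other Ccr7 ligand, was at 7.36, 7.51 and 8.03 in normal tissue and between 5.93 and 7.76 in the cancers, with a median of 6.59. The groups overlapped, 28 of 33 cancers lying below all normal tissues, and the difference was −1.04 ± 0.32 (adjusted p 0.0128, limma). Leaving out the third normal array ended this call (adjusted p 0.118). Cxcl12, a stromal ligand of Cxcr4, was at 11.53, 12.27 and 12.28 in normal tissue against 10.92 to 12.14 (median 11.62) in the cancers. Only 15 of 33 cancers lay below every normal tissue. Its difference of −0.50 ± 0.19 was called (adjusted p 0.0385, limma), but not after quantile normalization (0.149), with the mean of its probe sets (0.115), with arrays weighted by quality (0.0524) or without the first (0.22) or the third (0.237) normal array. Its other probe sets differed by −0.43 and −0.44 and were not called. Cxcl13, which draws B cells into follicles through Cxcr5, had a difference of −1.28 ± 0.56 that did not pass (adjusted p 0.0743, limma), and its cancers ran from 6.56 to 10.80.

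Among the 7 inflammatory CC ligands 3 fell. Ccl6 and Ccl9 are rodent chemokines that act on myeloid cells through Ccr1. Ccl9 was at 7.79, 8.68 and 10.06 in normal tissue and at 5.94 to 7.79 (median 6.78) in cancers, 32 of 33 of which were below all normal arrays. Its difference was −2.04 ± 0.30, or 4.11-fold (adjusted p 7.41e-06, limma). Ccl6 was at 10.12, 10.18 and 11.56 in normal tissue and spread widely over the cancers, from 5.82 to 11.17 with a median of 8.37. The difference of −2.24 ± 0.59 was called (adjusted p 0.00415, limma), and was not called without the first normal array (0.061). The cancers that overlapped normal tissue were 2 of the radiation plus MNU nonmutated group (10.98 and 11.17) and 1 of the mutated group (10.29).

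Ccl3, macrophage inflammatory protein 1 alpha and another Ccr1 ligand, was at 8.17, 8.46 and 8.82 in normal tissue and at 6.96 to 8.44 (median 7.51) in cancers. A single cancer reached the normal range, and the difference was −0.93 ± 0.18 (adjusted p 0.000158, limma). The monocyte attractants Ccl2 and Ccl7 had differences of −0.57 ± 0.67 and −0.76 ± 0.41 that did not pass, and Ccl2 had the wide range of 5.60 to 10.97 in cancers. Ccl4 (−0.19 ± 0.16) and Ccl5 (−0.58 ± 0.32), which attract T cells and monocytes, did not pass either. Ccl11 (eotaxin), the Ccr3 ligand that recruits eosinophils into the growing gland, was at 8.66, 9.26 and 9.41 in normal tissue and at 5.63 to 9.11 (median 7.07) in cancers. It fell by 1.88 on the log2 scale with an SE of 0.56 (adjusted p 0.0106, limma), and 30 of 33 cancers lay below all normal tissues. The call was lost without the second (0.0569) or the third (0.0675) normal array.

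Of the 3 interferon-induced ligands Cxcl10 fell. It was at 8.35, 8.80 and 8.92 in normal tissue and at 6.81 to 8.19 (median 7.42) in the cancers, with no overlap. The difference was −1.21 ± 0.20, 2.31-fold lower (adjusted p 2.45e-05, limma). Its neighbours did not pass. Cxcl9 was at 8.93, 9.07 and 9.52 in normal tissue and 7.63 to 10.75 in cancers, a difference of 0.27 ± 0.49 (95% interval −0.74 to 1.28). Cxcl11 was at 7.55, 8.02 and 8.71 in normal tissue and 6.56 to 9.73 in cancers, a difference of 0.27 ± 0.38 (95% interval −0.52 to 1.05). The interval of Cxcl10 (−1.61 to −0.81) lay below both of these, though the difference between the genes was not itself tested. Of the genes of the interferon response on a fixed list, which include Irf1 and Irf7, 1 of 6 tested was called, the interferon gamma receptor chain Ifngr1 (−0.62 ± 0.23, adjusted p 0.0396, limma). Irf1, a transcription factor of the response, differed by 0.43 ± 0.18 (adjusted p 0.0673).

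Of the 7 receptors tested Ccr1 and Cxcr3 fell. Ccr1, found on monocytes and other myeloid cells, was at 7.36, 7.75 and 9.08 in normal tissue and 5.84 to 7.69 (median 7.03) in cancers. Its difference of −1.06 ± 0.25 (adjusted p 0.00158, limma) rested in part on the first normal array, without which it was −0.55 and was not called (0.103). Cxcr3, the receptor of Cxcl9, Cxcl10 and Cxcl11 on activated T and NK cells, was at 8.27, 8.33 and 8.51 in normal tissue and 6.97 to 8.32 (median 7.57) in cancers. The difference was −0.81 ± 0.18 (adjusted p 0.00114, limma), with 31 of 33 cancers below every normal tissue. The 2 exceptions were the PhIP cancer with an H-ras mutation (8.27) and radiation plus MNU nonmutated cancer 4 (8.32).

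Cxcr4, the Cxcl12 receptor carried by leukocytes and many carcinoma cells, was at 8.92, 9.35 and 9.41 in normal tissue and at 8.94 to 11.13 (median 9.90) in cancers. In 26 of 33 cancers it was above every normal tissue, but the difference of 0.65 ± 0.31 did not pass (adjusted p 0.107, limma). All 3 of its probe sets gave differences of 0.56 to 0.69. Cxcr5, Ccr3, Cx3cr1 and Ccr10 had differences of −0.28 to −0.15, none called. The main probe set of Cxcr5 and another disagreed in sign (−0.28 and 0.06).

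None of the 5 epithelial ligands was called. Cx3cl1 (fractalkine), a membrane-bound adhesion ligand for Cx3cr1, was at 10.41, 10.73 and 11.03 in normal tissue and at 10.32 to 12.29 in cancers. The difference was 0.62 ± 0.30 (adjusted p 0.114, limma), and 24 of 33 cancers were above all normal tissues. Ccl27, a Ccr10 ligand best known from skin, differed by 0.26 ± 0.13. Cxcl14 (0.27 ± 0.38) and Cxcl16 (−0.07 ± 0.19) are also made by epithelium. Ccl28, which guides IgA-secreting plasma cells into the lactating gland through Ccr10, showed −0.04 ± 0.49, with cancers on both sides of normal tissue.

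The T cell and dendritic cell ligands were not called either. Ccl17 and Ccl22, which share Ccr4, differed by 0.50 ± 0.49 and −0.34 ± 0.15, and Ccl20, the Ccr6 ligand, by −0.11 ± 0.22. Among the neutrophil attractants, Cxcl1 (0.40 ± 0.47), Cxcl2 (−0.30 ± 0.31) and Cxcl3 (−0.29 ± 0.35) did not pass. Of the 4 other probe sets of Cxcl3, the 2 that passed the filter had positive differences (0.26 and 0.28), so its direction is uncertain. None of 9 measured NF-kB and cytokine genes was called (limma), nor had any an unadjusted p under 0.05.

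**Figure D2:**
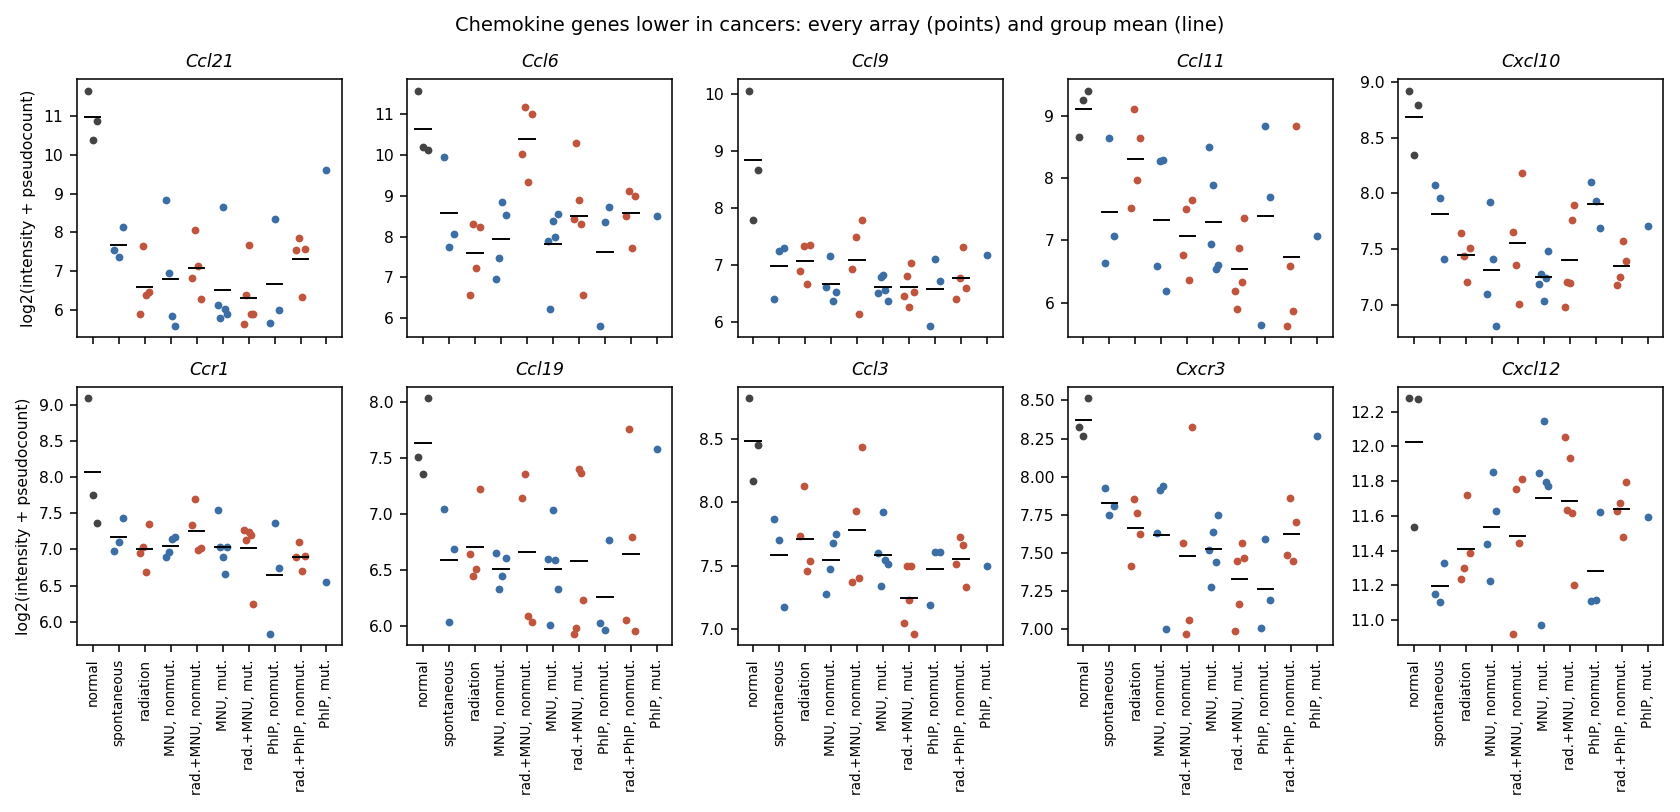
The 10 members that were lower in cancers, 1 panel each, with log2(intensity + 42.8) on the y axis and the 10 groups on the x axis. Points are arrays (black normal, blue unirradiated, red irradiated) and lines are group means. Ccl21 and Cxcl10 show no cancer within the normal range, whereas Cxcl12 overlaps it in most groups.

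Many of these genes lie side by side in the genome. Over all genes tested 16.3% were called lower, and whether the runs differ from that share was not tested. In the run Ccl5, Ccl9, Ccl6, Ccl3 and Ccl4, which no other protein-coding gene interrupts, 3 of 5 fell. In the run Ccl2, Ccl7 and Ccl11 1 of 3 fell, and in Cxcl11, Cxcl10 and Cxcl9 1 of 3. Ccl17, Cx3cl1 and Ccl22 form a run with none called, as do Cxcl2 and Cxcl1. Ccl19 fell beside Ccl27, which did not pass, and Ccr1 beside Ccr3, which did not pass. Ccl21, which also fell, lies outside the run of Ccl19 but on the same chromosome. Its promoter window starts at 61777466 and that of Ccl19 at 61761115.

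Genes around the chemokine pathway, from fixed lists of their functions, were read beside the members. Among 9 measured atypical receptors and related genes, 5 fell and none rose. Ackr1, the scavenging receptor of venular endothelium that carries chemokines across the vessel wall, fell by 2.71 on the log2 scale (SE 0.20, adjusted p 2.22e-11, limma). Rarres2, which encodes chemerin, fell by 1.70 (6.46e-06), and Ackr3, a decoy receptor of Cxcl12, by 1.46 (0.000143). In receptor desensitisation 2 of 9 rose, among them Arrb2 (beta-arrestin 2) by 1.10 ± 0.23 (adjusted p 0.000452, limma), and none fell. Of 7 G protein signalling genes Plcb3 alone was called, higher by 0.32 (0.0227), and of 14 migration effectors 3 fell, including Vav1 by 0.59 (0.0308). Among 6 proteases that cut chemokines 3 fell, including Dpp4, which trims many chemokines at their amino end, by 0.93 (0.00369), and 1 rose.

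Cell type markers moved in the same comparison, and their part in these differences was not tested. Leukocyte markers fell in 5 of 10 cases and the mean of the list was 7.99 to 9.58 in cancers and 9.42 to 10.1 in normal tissue. Macrophage markers fell in 6 of 12 (9.34 to 11.4 against 10.7 to 11.1), dendritic cell markers in 4 of 7, and B and plasma cell markers in 3 of 6 (6.58 to 9.56 against 8.75 to 9.37). In the last list Fcer2, a B cell marker, fell by 2.87 on the log2 scale and Jchain, of secreting plasma cells, fell by 3.26. None of 13 T and NK cell, 5 neutrophil or 7 mast cell markers was called (limma). An unadjusted p under 0.05 was found for 5, 0 and 0 of them, against 44.2% of all genes. All 7 endothelial markers fell, as did 7 of 8 adipocyte markers, whose list means did not overlap (6.83 to 7.93 against 10.8 to 11.7), while 7 of 8 luminal epithelial markers rose.

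**Figure D3:**
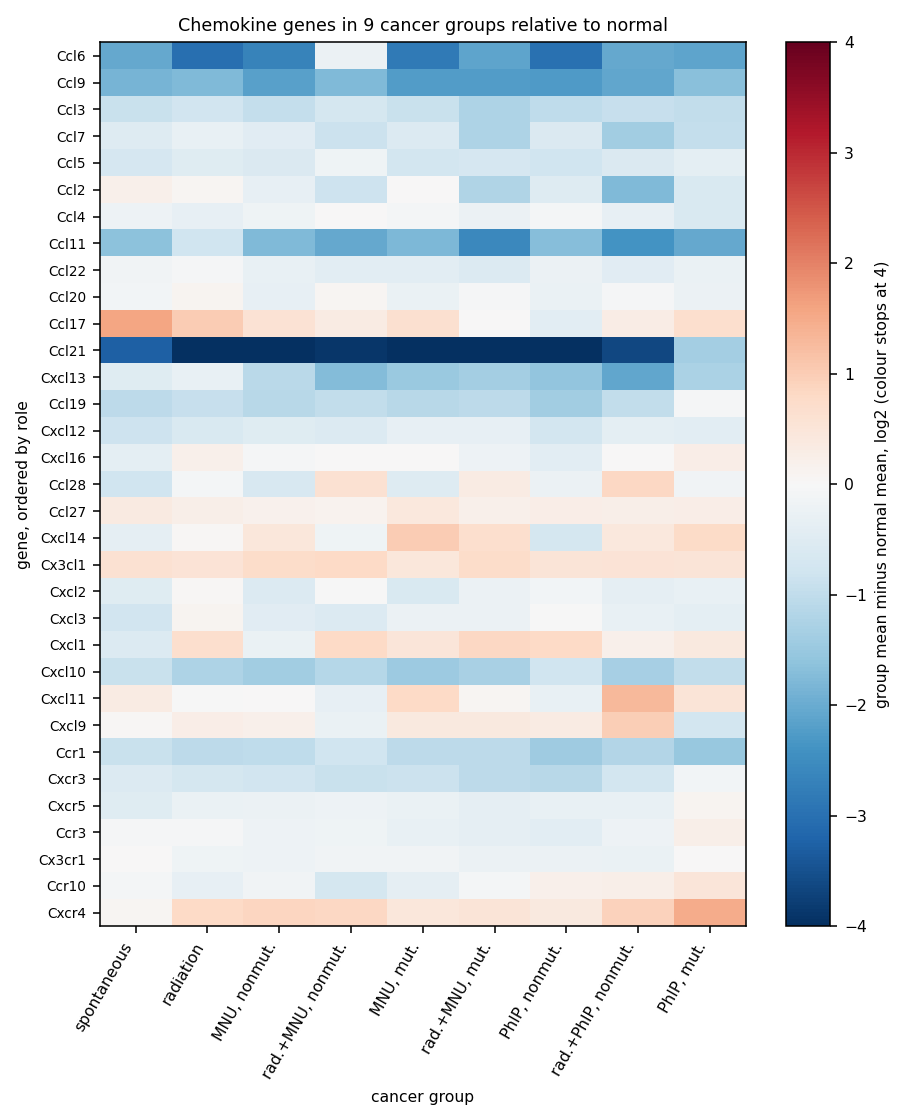
Group mean minus the normal mean (colour, log2 scale, with colour stopping at 4) for 33 members (rows, by role) in the 9 cancer groups (columns). Ccl21, Ccl9 and Ccl11 are below normal in every group, and the radiation plus MNU nonmutated column is the palest for Ccl6.

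H-ras status was compared within the MNU and the radiation plus MNU cancers, 10 mutated against 8 nonmutated. No member was called, as for all genes tested (0% called). An unadjusted p under 0.05 (limma) was found for 2 members (6.06%) and 7.53% of all genes. Cxcl14, an epithelial ligand, differed by 0.72 ± 0.30 (mutated minus nonmutated, p 0.0232, adjusted p 0.552), at 11.53 to 12.89 in mutated and 10.11 to 12.24 in nonmutated ones. Ccl6 differed by −1.01 ± 0.46 (p 0.0372, adjusted p 0.607), and Cxcl11 by 0.59 ± 0.30 (p 0.0606). Ranges of mutated and nonmutated cancers overlapped for each of these.

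After MNU alone no member was called (0% of all genes) and none had an unadjusted p under 0.05, against 7.84% of all genes. The smallest p belonged to Ccl27 (0.27 ± 0.14), Cxcl11 (0.77 ± 0.43) and Cxcl1 (0.75 ± 0.53). After radiation plus MNU no member was called (0% of all genes). Of the members 2 (6.06%) had an unadjusted p under 0.05 (limma), against 3.91% of all genes. There Ccl6 was at 6.58, 8.32, 8.43, 8.88 and 10.29 in mutated cancers and at 9.32, 10.01, 10.98 and 11.17 in nonmutated ones. The difference was −1.87 ± 0.65 (p 0.0076, adjusted p 1), with 4 of 5 mutated cancers below all nonmutated ones. Ccl3 showed −0.54 ± 0.19 (p 0.00974, adjusted p 1) and Cxcl14 0.85 ± 0.42. The test of whether the H-ras difference changed with radiation called no member (0% of all genes). For 1 member (3.03%), Ccl3 (−0.58 ± 0.28), the unadjusted p was under 0.05, against 3.32% of all genes. Ccl6 (−1.73 ± 0.92) and Ccr10 (0.81 ± 0.49) followed.

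Macrophage markers and Ccl6 put the arrays of 1 group in the same order, and in every other group with several arrays the orders differed. In the radiation plus MNU nonmutated group the mean of the macrophage list was 10.8, 11.4, 10.2 and 11.3 on arrays 1 to 4, beside Ccl6 values of 10.01, 11.17, 9.32 and 10.98. In the MNU nonmutated group the list means were 10.05, 10.78, 10.10 and 10.15, beside Ccl6 values of 6.97, 7.47, 8.84 and 8.52. No marker of the list was called for H-ras status, and the part of these cells in the Ccl6 values was not tested.

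Causes of the 22 nonmutated cancers were compared with an F test over 6 groups. No member was called, against 0.00849% of all genes. With an unadjusted p under 0.05 (limma) there were 2 members (6.06%), against 8.85% of all genes. Ccl6 had F = 4.40 (p 0.00421, adjusted p 0.323), Cxcl11 3.53 (p 0.0129) and Ccl28 2.41 (p 0.0602). Ccl6 averaged 10.37 ± 0.87 (SD, n = 4) after radiation plus MNU, and between 7.59 and 8.58 in the other 5 groups. Cxcl11 averaged 9.40 ± 0.36 (SD, n = 4) after radiation plus PhIP, and between 7.77 and 8.42 in the other 5.

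Each induced nonmutated group was also set against the 3 spontaneous cancers, which all 5 comparisons share. No member was called in any of them. For groups said not to overlap, here and below, the share of all genes that did so was not computed. With 3 or 4 arrays on a side, groups can separate by chance, and not every member that did so is named. After radiation 0.0255% of all genes were called. An unadjusted p under 0.05 was found for 1 member (3.03%) and 5.08% of all genes. Cxcl16 was at 11.11, 11.42, 11.64 and 11.73 against 10.79, 10.82 and 11.03 in spontaneous cancers. These ranges did not overlap, nor did those of Ccl28, Cx3cr1 and Cxcr4. The Cxcl16 difference was 0.59 ± 0.24 (p 0.0186, adjusted p 0.903, limma). Cxcl3 (0.90 ± 0.45) and Cxcl1 (1.20 ± 0.60) followed. After MNU 0.0425% of all genes were called, and 0 members but 8.35% of all genes had an unadjusted p under 0.05. The leading members there were Cxcl10 (−0.50 ± 0.25), Cxcr4 (0.78 ± 0.39) and Cxcl14 (0.80 ± 0.48). All 4 MNU cancers were above the 3 spontaneous ones for Cxcr4 and for Cxcl14.

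After PhIP 0.00849% of all genes were called. An unadjusted p under 0.05 was found for 3 members (9.09%) and 5.38% of all genes. Ccl17, which attracts Ccr4-bearing T cells, was at 5.92, 6.27 and 7.16 against 7.45, 8.47 and 9.43 in spontaneous cancers. All PhIP values lay below all spontaneous ones. The difference was −1.997 ± 0.66 (p 0.00541, adjusted p 0.838, limma), and it was called when arrays were weighted by quality (adjusted p 0.0374), a setting in which 1.62% of all genes and 1 of 33 members were called. The dendritic cell list had means of 8.66, 8.91 and 9.64 in these PhIP cancers and 9.51 to 10.1 in the spontaneous ones, and its part in the Ccl17 values was not tested. Cxcr3 (−0.56 ± 0.25) and Cxcl1 (1.33 ± 0.64) followed.

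After radiation plus MNU 0.0764% of all genes were called. An unadjusted p under 0.05 was found for 3 members (9.09%) and 9.45% of all genes. The leading members were Ccl6 (1.79 ± 0.74), Ccl28 (1.40 ± 0.62) and Cxcl1 (1.33 ± 0.60). After radiation plus PhIP 0.0255% of all genes were called. An unadjusted p under 0.05 was found for 5 members (15.2%) and 10.3% of all genes. The leading members there were Ccl28 (1.64 ± 0.62), Ccl2 (−1.96 ± 0.85) and Cxcl13 (−1.60 ± 0.71). With weighted arrays Ccl28 (adjusted p 0.0301) and Ccl2 (0.0464) passed there, 2 of 33 members against 6.55% of all genes. Cxcl13 was at 6.56, 6.77, 7.32 and 7.65 against 8.36, 8.39 and 9.29, and these ranges did not overlap. Those of Cxcl11, Cxcl12, Cxcl14 and Cxcr4 did not overlap either, with radiation plus PhIP cancers the higher.

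Radiation was compared with no radiation as the mean over 4 backgrounds. No member was called, nor any gene (0%). An unadjusted p under 0.05 (limma) was found for 2 members (6.06%) and 9.9% of all genes. Ccl28 came closest, at 0.98 ± 0.29 (95% interval 0.38 to 1.57, 1.97-fold, p 0.00232, adjusted p 0.363). It was at 7.26, 7.32, 7.82 and 8.65 in radiation cancers against 6.87, 7.04 and 7.19 in spontaneous ones, which did not overlap. After MNU, nonmutated cancers held 7.64, 7.81, 8.84 and 9.44 with radiation against 5.57, 6.84, 8.05 and 8.33 without. Mutated ones held 7.01, 7.53, 8.25, 8.97 and 8.99 against 6.69, 7.03, 7.40, 7.56 and 7.81. After PhIP the values were 7.07, 8.12, 9.60 and 9.89 against 6.77, 7.74 and 8.23. The mean was higher with radiation in 4 of 4 backgrounds, by 0.73, 1.24, 0.85 and 1.09, though the ranges overlapped in the last 3. The lowest value, 5.57, was on MNU nonmutated array 4, which had the highest hexokinase ratio.

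Ccl6 had a radiation difference of 0.77 ± 0.35 (p 0.0363), made of −0.99 in the spontaneous background, 2.42 and 0.69 after MNU (nonmutated, mutated) and 0.95 after PhIP. Ccl20, a ligand for Ccr6, followed with 0.27 ± 0.13 (p 0.0563) and was higher with radiation in 4 of 4 backgrounds. Ccl2, outside the rule that named these genes and singled out after its values were seen, had a mean difference below 0 in 4 of 4 backgrounds, at −0.13, −0.51, −1.21 and −1.26. In all 7 of 33 members (21.2%) had 1 sign in all 4 backgrounds, 5 higher and 2 lower with radiation, close to the 17.8% of all genes. The mast cell markers had a median radiation difference of −0.733, with none of 7 called, and their part in the Ccl2 and Ccl28 values was not tested.

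**Figure D4:**
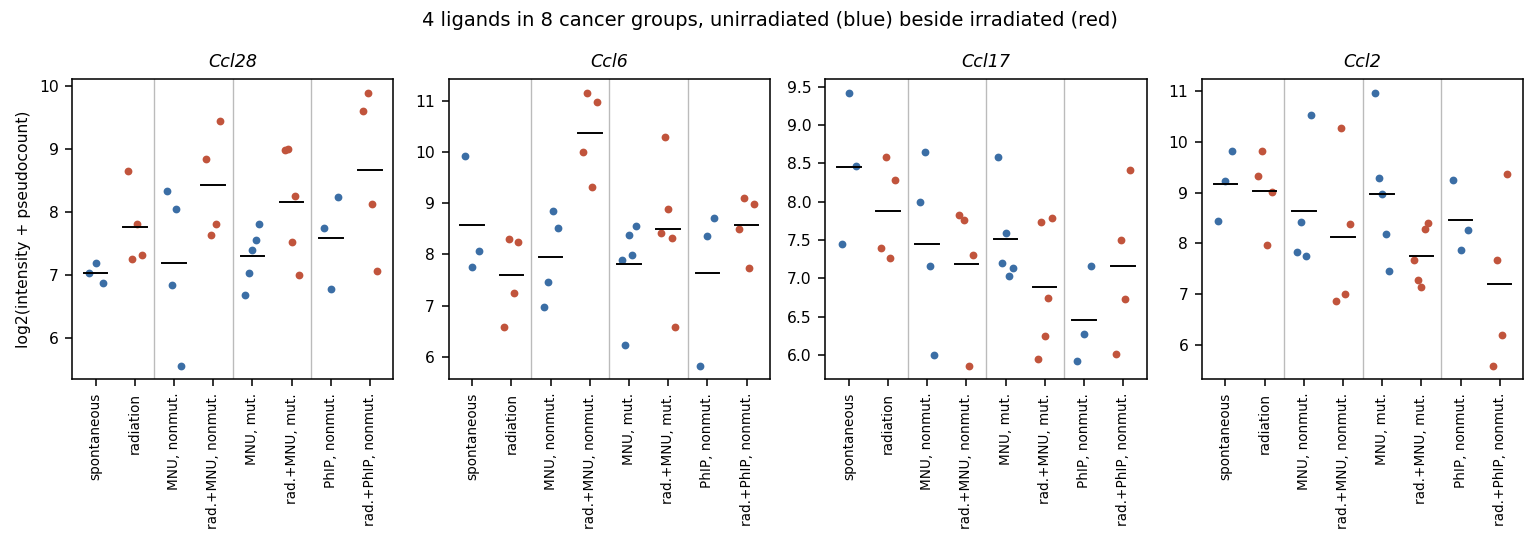
Ccl28, Ccl6, Ccl17 and Ccl2 in 8 cancer groups (x axis) as log2(intensity + 42.8) (y axis), with unirradiated groups in blue beside irradiated groups in red, points for arrays and lines for means. The Ccl28 mean is higher in the irradiated group of each pair, and Ccl6 stands highest in the radiation plus MNU nonmutated group.

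Ligands and their receptors were then related across the 33 cancers. Of 22 textbook pairs 9 had both members past the filter, and none passed after adjustment over the 9 (permutation tests, two-sided, 100000 resamples). Cxcl10 and its receptor Cxcr3 had the strongest relation, with r = 0.416 (permutation p 0.0163, adjusted 0.146) and rho = 0.388 (adjusted 0.242). With values centred on their group means r was 0.615 (adjusted 0.0736), and without the 2 arrays farthest from the Cxcl10 median it was 0.473. Cxcl9 and Cxcr3 gave 0.248, falling to 0.040 without 2 arrays. Ccl11 and Ccr3 gave 0.306, Cx3cl1 and Cx3cr1 0.298, Cxcl12 and Cxcr4 0.249 and Ccl3 and Ccr1 0.241. Ccl28 and Ccr10 gave 0.158, Ccl27 and Ccr10 −0.060, and Cxcl13 and Cxcr5 −0.074. Ccr10 exceeded the filter intensity on only 3 of the 36 arrays, and Ccr3 and Ccr1 on 5 each. For pairs with these dim receptors, a low r does not show that a relation is absent.

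The members were also related to the mean of each cell type marker list over the 33 cancers, a comparison added after the values had been seen. Of 396 relations 39 passed after adjustment over all of them (permutation tests, two-sided), 26 of these also by rank, and 8 of the 26 also with values centred on group means and permuted within groups. The arrays share their tissue mixture and their scaling, so these relations describe the samples and not a source of the transcripts.

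Ccl2 and Ccl7, both ligands of Ccr2, varied with the mast cell list (Cpa3, Tpsb2, Tpsab1 and others). For Ccl2 r was 0.803 and rho 0.756 (adjusted p 0.000792 and 0.00132, permutation), 0.831 within groups and 0.734 without the 2 arrays farthest from the median. Its 3 highest values, 10.97, 10.54 and 10.27, were on MNU mutated array 1, MNU nonmutated array 4 and radiation plus MNU nonmutated array 2, where the list mean was 11.5. The first 2 of these arrays had the highest hexokinase 3′ to 5′ ratios of all, 4.66 and 12.2, and the part of RNA integrity was not tested. For Ccl7 r was 0.611 and rho 0.628 (adjusted p 0.00436 and 0.0112), and 0.496 without 2 arrays. Of the 8 members that passed with this list, only Ccl2 and Ccl7, 2 of them, had a positive r. Cxcl2, Ccl20, Ccl5, Cx3cl1, Ccl28 and Cxcl1 went the other way. Cxcl1 had r = −0.605 and rho = −0.603 (adjusted p 0.00606 and 0.0123, permutation), and −0.550 without 2 arrays. Ccl28 had r = −0.589 and rho = −0.620 with the same list (adjusted p 0.00606 and 0.0112), but not after centring within groups (adjusted p 0.097).

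Cxcr3 varied with the T and NK cell list, in which its known carriers are found, with r = 0.794 and rho = 0.716 (adjusted p 0.000792 and 0.00132, permutation), and 0.733 without 2 arrays. Ccl5, made by activated T and NK cells, did so too (r = 0.607, rho = 0.522, adjusted p 0.00682 and 0.0414), at 0.486 without 2 arrays. Ccl6 and Ccl9 varied with the macrophage list, at r = 0.756 and rho = 0.597 for Ccl6 (adjusted p 0.000792 and 0.0131) and r = 0.707 and rho = 0.577 for Ccl9 (adjusted p 0.000792 and 0.0211). Without 2 arrays these were 0.630 and 0.590. Both relations also passed within groups (adjusted p 0.0158 and 0.044, permutation). Ccl17 varied with the dendritic cell list, at r = 0.721 and rho = 0.762 (adjusted p 0.000792 and 0.00132), and 0.658 without 2 arrays. These relations were not particular to 1 list. By r, Ccl6 and Ccl9 also passed with the leukocyte, fibroblast and adipocyte lists, and Ccl9 with the T and NK and dendritic cell lists. Ccl17 also passed with the leukocyte and T and NK lists, and Cxcr3 with the leukocyte and B and plasma cell lists. With the leukocyte list, Cxcr3, Ccl9 and Ccl17 did not pass within groups (adjusted p 0.246, 0.0981 and 0.137, permutation). Ccl6 did not pass with that list by rank (adjusted p 0.212, permutation). Ccl5 also passed with the B and plasma cell list and, inversely, with the mast cell list. No member passed with the neutrophil, endothelial or basal lists, Cxcl1 and Cxcl2 included.

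**Figure D5:**
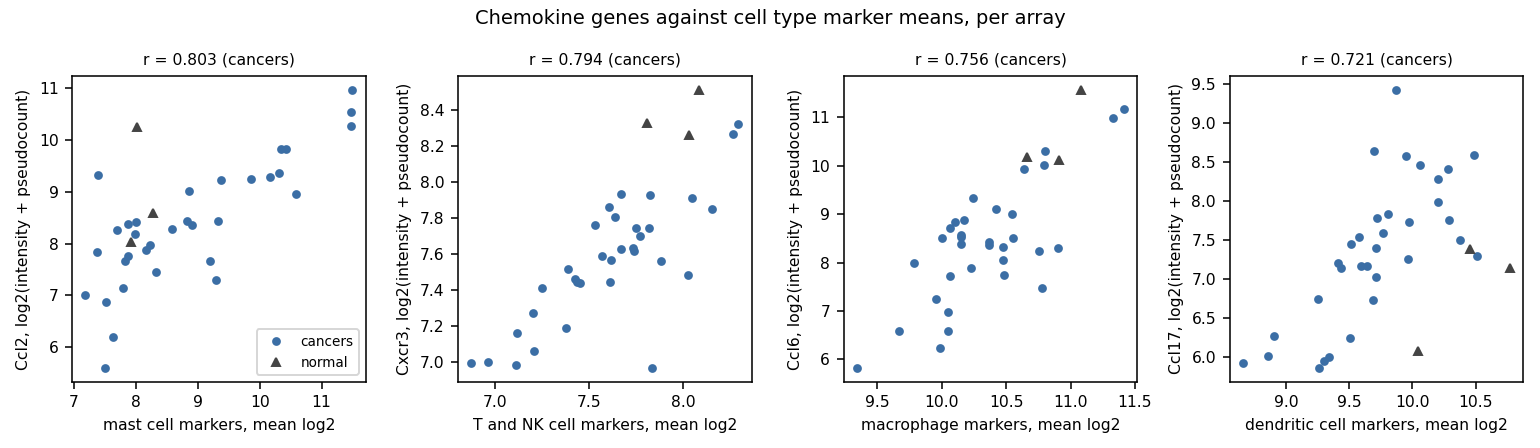
Each member on the y axis (log2(intensity + 42.8)) against the mean log2 value of a marker list on the x axis, for 33 cancers (circles) and 3 normal tissues (triangles, not in r). The panels show Ccl2 with mast cell markers (r = 0.803), Cxcr3 with T and NK cell markers (0.794), Ccl6 with macrophage markers (0.756) and Ccl17 with dendritic cell markers (0.721), and points rise from left to right in each.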

How the data were processed

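Total RNA of 36 samples was hybridised as biotin-labelled cRNA, per the labels' protocols. The table the authors deposited holds linear intensity values, 1 for each probe set in each sample. How probes were summarised is not stated in the labels, and every array has a mean of 500.1 once 2% of probe sets at each end are left out. Probe sets with several symbols (436) or none (9831) were left out. Intensities were taken as log2(intensity + 42.8), low probe sets were filtered, and the probe set with the highest mean stood for its gene. limma 3.58.1 (R 4.3.3) fitted 1 mean per label group to 36 arrays, with Benjamini-Hochberg adjustment over 11773 genes and a threshold of 0.05. In simulated data for the cancers against normal tissue, 79% of changes of 1 on the log2 scale and 96% of changes of 2 were recovered among 11773 genes. The simulation changed 100 genes by each size and drew noise independently, whereas 34.4% of genes were called in the data. These shares are therefore not the power of that comparison, and comparisons between cancer groups were not simulated. Correlations used Python 3.11.15 with 100000 permutations.

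The members, the gene lists and the tests were chosen with earlier results of these data known. Full values were given for members called in any comparison (up to a fixed limit by size), elsewhere for the 3 with the smallest p, and for probe sets that disagree in sign. The number of arrays limits the precision. The labels give no batch. Replicate numbers do not pair the arrays: the median correlation of deviations was −0.000 for equal numbers and 0.001 for different ones. Alternatives were other pseudocounts (16, 100), filters, quantile normalization, probe set averaging, array weights (whose estimate stopped before full convergence), a replicate block and leaving out each array.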

Additional observations from a re-analysis of the deposited data

Results flagged for a closer look

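In 144 sets of 4 or 5 arrays of a group, over 24 named members, 9 had 1 array standing apart from the others, 6.25% of the sets, where chance alone gives about 1 in 20. Each is given with its gap to the nearest array as a share of the group's range.

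Ccl21 was at 8.66 on MNU mutated array 3, where the other 4 were at 5.81 to 6.14 (share 0.884). Ccl6 was at 6.24 on MNU mutated array 2, with the nearest at 7.89 (0.712). Cxcl3 was at 7.75 on MNU mutated array 5, with the nearest at 7.18 (0.723). In the radiation plus MNU mutated group, Ccr1 was at 6.24 on array 5 with the nearest at 7.13 (0.871), Ccr10 at 6.01 on array 4 with the nearest at 6.79 (0.742), and Cxcl14 at 11.53 on array 1 with the nearest at 11.81 (0.719). In the radiation plus MNU nonmutated group, array 1 stood apart for Ccr10, at 7.04 against 5.94 or less (0.841), and for Cxcr5, at 9.31 against 9.39 or more (0.884), a gap of small size. Cxcl16 was at 10.71 on radiation plus PhIP array 1, with the other 3 at 11.46 to 11.51 (0.931). On that array the B and plasma cell list had its highest mean of any cancer, 9.56, and the dendritic cell list was at 8.86.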

How the results depend on the processing

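Of 2507 values under alternatives, for 65 results, 2490 were classed as unchanged. For single genes and pairs this meant the same direction and the same side of the threshold. For the 541 counts of members called it allowed small changes, such as 13 for 10, so single members could cross the threshold. The count of 10 members lower in cancers became 5 (Ccl3, Ccl6, Cxcl10, Cxcl12 and Cxcr3) where a gene had to exceed the filter on 18 arrays, which left 22 members to test, and 13 with no filter. It ran from 7 to 11 when each array was left out in turn, the 7 arising without the first or the third normal array. With the replicate block it stayed at 10, and the block changed no call of a named member. Ccl21, Ccl9, Cxcl10, Ccl3 and Cxcr3 were called under every alternative that tested them, with highest adjusted p of 0.000199, 0.000997, 0.00104, 0.00706 and 0.0176 (limma). The filter on 18 arrays did not test Ccl21, above the filter on 15 arrays, or Ccl9, above it on 5. Ccl9 reached the required 3 arrays only with normal tissue counted, as just 2 cancers exceeded the filter. With array weights 1 member was called for PhIP against spontaneous cancers (Ccl17) and 2 for radiation plus PhIP (Ccl2, Ccl28), where the main count was 0. Over all genes the weights raised the calls from 1 to 191 (1.62%) and from 3 to 771 (6.55%), so the members' shares (3.03% and 6.06%) were near those of all genes. The other counts of 0 stayed at 0 under all alternatives run. The adjusted p of Ccl28 for radiation ran from 0.101 to 0.58. The correlation of Cxcl13 and Cxcr5 turned from −0.074 to 0.145 with the mean of probe sets, and the cause was not tested. No pair passed under any of 3 alternatives. With 3 normal arrays, each of them weighs heavily on every difference from normal tissue.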

Other observations

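The PhIP cancer with an H-ras mutation is the only sample of its group and entered no group comparison but cancers against normal tissue. It was also among the cancers over which all correlations were taken. It had the highest Ccl21 of all cancers (9.62), with Ccl19 at 7.58, Cxcr3 at 8.27 and Cxcr4 at 10.70. Its T and NK cell list mean was 8.27, and that of the B and plasma cell list 8.14. The 3 nonmutated PhIP cancers had T and NK means of 6.96 to 7.57 and Ccl21 at 5.66, 6.02 and 8.34.

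Radiation cancer 1 had the highest values of the neutrophil attractants Cxcl1 (11.04) and Cxcl2 (9.17) among the 33 cancers, and a neutrophil marker mean of 7.91, within the range of the cancers (6.07 to 8.60). Radiation cancer 2 had the highest Cxcl13 (10.80) and Ccl11 (9.11), with a B and plasma cell list mean of 7.32. PhIP nonmutated cancer 2 had the lowest list means of all cancers for fibroblast (8.12, others from 10.3 to 11.9), leukocyte (7.99), macrophage (9.34), dendritic cell (8.66) and endothelial (8.16) markers, together with the lowest Ccl6 (5.82), Ccl9 (5.94), Ccr1 (5.84) and Cxcl14 (8.92) of all cancers.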
